A study of Mus musculus with 10 samples.

Results

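A set of 10 genes of canonical WNT signalling was described across 3 RNA-seq replicates of E14, a mouse embryonic stem cell line, chosen by symbol among the 55487 genes of the tables: Ctnnb1, Gsk3a, Gsk3b, Apc, Axin1, Axin2, Tcf7, Tcf7l1, Tcf7l2 and Lef1. All 10 were found by Ensembl gene ID. The series holds 10 samples in 6 groups, and the 7 samples of the R-loop mapping groups (MapR, BisMapR and their controls) were not analysed here. Every sample, RNA-seq included, came from cells in DMEM with 15% fetal bovine serum, LIF, a GSK inhibitor at 3 µM and a MEK1/2 inhibitor at 1 µM. No sample was grown without the inhibitors, so the data give levels under GSK inhibition and no response to it. Nothing in the labels says whether the 3 replicates came from separate cultures, so their spread may be technical.

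In cells that receive no WNT ligand, a cytoplasmic destruction complex built on the scaffolds APC and AXIN holds β-catenin (Ctnnb1) while casein kinase 1 and the GSK3 kinases phosphorylate it, after which it is ubiquitinated and degraded. WNT ligand, or a GSK3 inhibitor, stops the phosphorylation, and β-catenin then accumulates and binds the TCF and LEF factors on DNA. In mouse embryonic stem cells the factor Tcf7l1 (also called Tcf3) acts mainly as a repressor of pluripotency genes such as Esrrb, and GSK3 inhibition is used in culture because it relieves that repression. These steps act on proteins, which an RNA measurement does not see.

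The stretch of β-catenin that GSK3 phosphorylates is shown because it is the substrate of the enzyme inhibited in all these cultures. It is coding sequence in exon 3 of Ctnnb1 at chr9:120950593-120950655 (GRCm38.p6, plus strand), from codon 29 to codon 49. Capitals mark the codons of serine 33, serine 37 and threonine 41, the GSK3 sites, and of serine 45, the casein kinase 1 site.
Ctnnb1: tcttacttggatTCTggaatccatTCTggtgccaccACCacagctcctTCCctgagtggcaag

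The 4 DNA-binding factors share an HMG box, and the start of it is shown because the comparison of their levels rests on telling their reads apart. Each line gives 60 bases of coding sequence in the direction of the gene (GRCm38.p6), from chr11:52256994-52257053 (minus strand, exon 7) for Tcf7, chr6:72631260-72631319 (minus strand, exon 9) for Tcf7l1, chr19:55918940-55918999 (plus strand, exon 9) for Tcf7l2 and chr3:131194683-131194742 (plus strand, exon 8) for Lef1. Capitals mark the 17 positions where the 4 genes do not all have the same base.
Tcf7: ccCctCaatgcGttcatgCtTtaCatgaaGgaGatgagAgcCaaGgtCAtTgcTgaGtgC
Tcf7l1: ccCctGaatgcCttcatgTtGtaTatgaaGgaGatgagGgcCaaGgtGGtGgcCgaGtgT
Tcf7l2: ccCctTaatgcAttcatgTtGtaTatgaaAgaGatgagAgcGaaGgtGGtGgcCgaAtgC
Lef1: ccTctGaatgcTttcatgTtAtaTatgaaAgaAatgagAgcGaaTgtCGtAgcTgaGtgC
The other 43 bases were the same in all 4 genes. Tcf7l1 and Tcf7l2 were the most alike pair, with 88.3% of the 60 bases identical. Over the longest annotated transcripts, the longest run without a mismatch shared by any pair of the 4 was 23 nt, again between Tcf7l1 and Tcf7l2. It was 17 nt between Gsk3a and Gsk3b and 21 nt between Axin1 and Axin2. The estimated counts of the 10 genes were whole numbers in 30 of 30 values (within 0.001), so no fraction of a read was shared out to them from another gene. Whether any read that maps to several genes was given whole to a member was not tested.

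Estimated counts summed to 11420425 in replicate 1, 6467405 in replicate 2 and 5787357 in replicate 3. Replicate 3 stood apart. Chi-square per degree of freedom of the counts was 29.2 against replicate 1 and 20.4 against replicate 2, and replicates 1 and 2 gave 6.64, so no pair looked like copies of a library. Stem cell identity was checked on marker lists. All 8 pluripotency markers reached a mean TPM (the deposited transcript abundance, scaled by transcript length and library) of 1, with summed TPM between 688.6 and 1060. Summed TPM ran from 1.79 to 4.57 over 6 fibroblast markers, from 0.51 to 1.16 over 6 primitive endoderm markers, from 0.98 to 1.59 over 6 primitive streak markers and from 3.76 to 5.84 over 6 trophoblast markers. The trophoblast sum was mostly Tfap2c and the fibroblast sum mostly Thy1 and Pdgfrb. The primitive streak sum was mostly Eomes, at 0.97, 1.05 and 0.84 TPM in replicates 1, 2 and 3. Col1a1 had 20, 8 and 3 counts, while Col3a1, Postn and Foxa2 had no count in any replicate.

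The 10 genes fell into 3 tiers of level. β-catenin stood alone at the top, 8 genes of the destruction complex and the TCF factors lay between 1.33 and 12.2 TPM on average, and Lef1 was at the limit of detection. Of the 10 genes, 9 averaged 1 TPM or more, as did 19.8% of all genes and 44.2% of protein-coding genes. Their median was 6.21 TPM, and that of protein-coding genes at or above 1 TPM was 5.73. TPM is used here to compare genes, since it is per length, and CPM (the count as a share of its library, without length scaling) to compare replicates. Genes with an effective length under 100 nt held 60.3%, 65.8% and 64.0% of the TPM of replicates 1, 2 and 3. Without them every TPM would be higher by 1.33, 1.55 and 1.47 on the log2 scale, which takes the mean of Ctnnb1 from 131.6 to 356.9 TPM and leaves ratios within a library as they are.

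**Figure D1:**
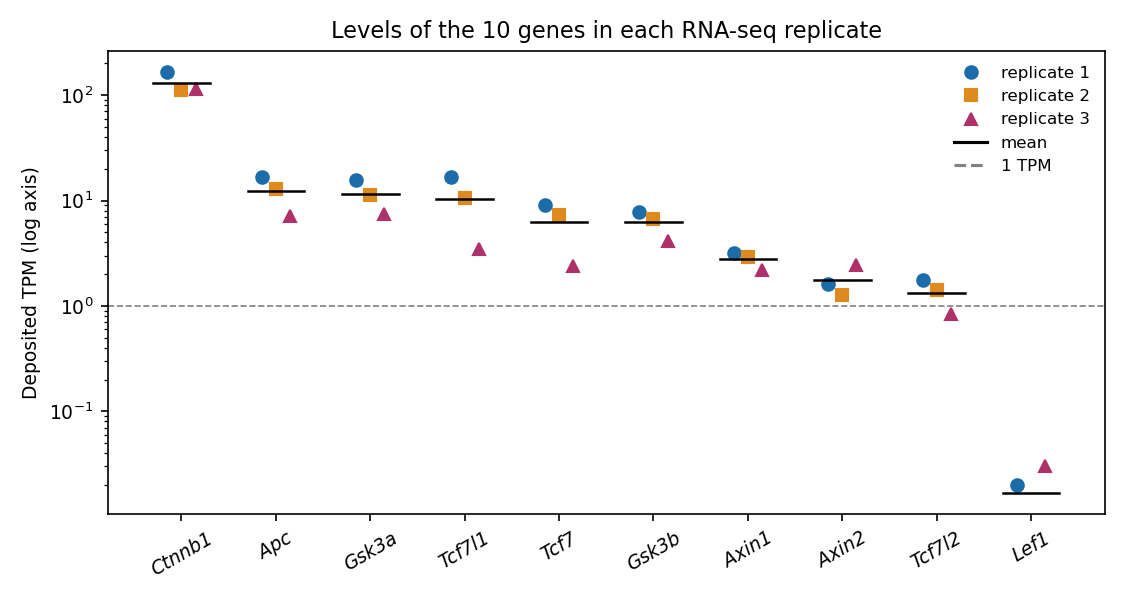
Deposited TPM of the 10 genes (log axis) in each of the 3 replicates, ordered by mean, with the mean as a bar and 1 TPM as a dashed line; Lef1 is listed at 0 in replicate 2 and that point is not drawn. Ctnnb1 lies between 113 and 166.5 TPM, above every other gene, and Tcf7l1 and Tcf7 spread widely, with replicate 3 lowest.

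Ctnnb1 (ENSMUSG00000006932, chromosome 9, 120929216 to 120960507), which encodes β-catenin, had 166.5, 113 and 115.5 TPM in replicates 1, 2 and 3, or 131.6 ± 30.2 TPM (SD, n = 3). It ranked 184 among protein-coding genes by mean TPM. Its CPM was 701.2, 709.4 and 813.2, so replicate 1 was the highest in TPM and the lowest in CPM. The effective length the authors used was 1774 nt in replicate 1 and 2138 and 2148 nt in replicates 2 and 3. Ulk4 overlaps the end of Ctnnb1 on the opposite strand and had 60, 29 and 20 counts, against 8008, 4588 and 4706 for Ctnnb1.

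Among the scaffolds, Apc (ENSMUSG00000005871, chromosome 18, 34220924 to 34322552), the large scaffold that binds β-catenin in the destruction complex, had 16.7, 12.9 and 7.11 TPM, or 12.2 ± 4.83 TPM (SD, n = 3). Axin1 (ENSMUSG00000024182, chromosome 17, 26138688 to 26195811), the constitutive scaffold, had 3.18, 2.89 and 2.21 TPM, or 2.76 ± 0.498 TPM (SD, n = 3). Axin2 (ENSMUSG00000000142, chromosome 11, 108920349 to 108950783), a scaffold and itself a widely used target gene of β-catenin, had 1.60, 1.26 and 2.43 TPM, or 1.76 ± 0.602 TPM (SD, n = 3). The scaffolds were therefore present at unequal levels, with Apc above both AXIN genes in every replicate.

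The order of Axin1 and Axin2 depended on how length entered. By TPM, Axin1 was above Axin2 in replicates 1 and 2 and below it in replicate 3, with a log2 ratio of 0.68 ± 0.72 (SD, n = 3; exact sign-flip p 0.5). The CPM of Axin2 was 11.8, 12.8 and 13.5, nearly level, while its effective length was 3110, 3459 and 1688 nt. Axin1 kept an effective length between 3314 and 3404 nt. With the longest annotated transcript as the length of each gene in every replicate, the log2 ratio of Axin1 to Axin2 was 1.21 ± 0.14 (SD, n = 3). An effective length in these tables is an average over the isoforms of a gene weighted by their estimated abundance; the 7 isoforms listed for Axin2 ran from 477 to 4260 nt.

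**Figure D2:**
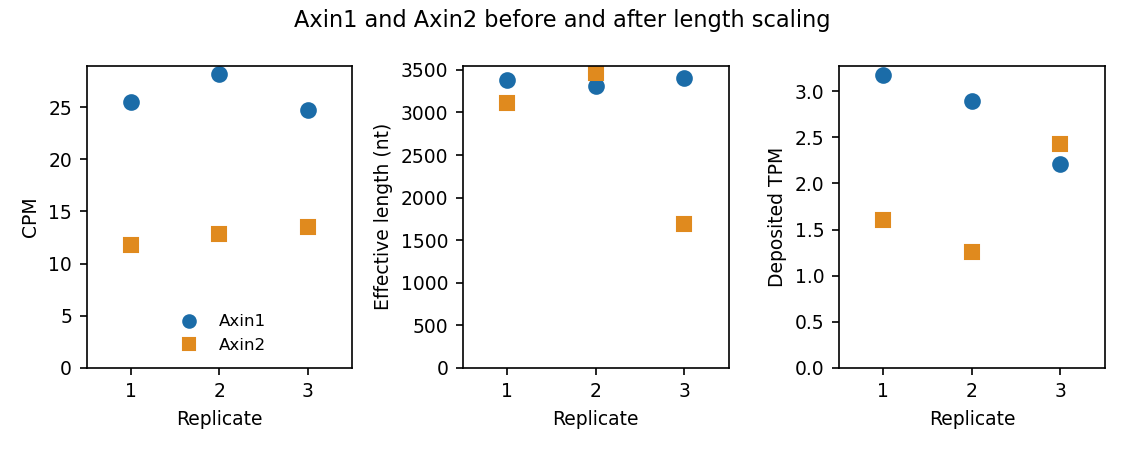
CPM (left), effective length in nt (middle) and deposited TPM (right) of Axin1 (circles) and Axin2 (squares) in each replicate. Axin2 CPM lies between 11.8 and 13.5, and its effective length of 1688 nt in replicate 3 goes with the one TPM value, 2.43, that is above that of Axin1.

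Both GSK3 kinases, the targets of the inhibitor, were expressed. Gsk3a (ENSMUSG00000057177, chromosome 7, 25228258 to 25237851) had 15.8, 11.3 and 7.38 TPM, or 11.5 ± 4.20 TPM (SD, n = 3). Gsk3b (ENSMUSG00000022812, chromosome 16, 38089001 to 38246084) had 7.83, 6.65 and 4.12 TPM, or 6.20 ± 1.90 TPM (SD, n = 3). Per length, Gsk3a was the higher in every replicate, with a log2 ratio of Gsk3b to Gsk3a of -0.87 ± 0.12 (SD, n = 3). By CPM the direction was the opposite, with a log2 ratio of 0.46, since the reads of Gsk3b come from a longer transcript (effective length 4959 to 5627 nt, against 2048 to 2094 nt for Gsk3a). With 3 replicates an exact sign-flip test cannot go below a two-sided p of 0.25, which is the value reached here and for every ratio below that has the same sign in all replicates.

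The TCF and LEF factors, which carry β-catenin to DNA, differed widely among themselves. Tcf7l1 (ENSMUSG00000055799, chromosome 6, 72626378 to 72789254) had 16.8, 10.5 and 3.45 TPM, or 10.2 ± 6.66 TPM (SD, n = 3). Tcf7 (ENSMUSG00000000782, chromosome 11, 52252371 to 52283014), which encodes TCF1, had 9.05, 7.23 and 2.37 TPM, or 6.22 ± 3.45 TPM (SD, n = 3). Tcf7l2 (ENSMUSG00000024985, chromosome 19, 55741820 to 55933654), which encodes TCF4 and is best known from the gut, had 1.75, 1.40 and 0.83 TPM, or 1.33 ± 0.464 TPM (SD, n = 3). In each of these 3 genes replicate 1 was the highest and replicate 3 the lowest.

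Lef1 (ENSMUSG00000027985, chromosome 3, 131110471 to 131224356), which is both a factor of the family and a textbook β-catenin target, had 2, 0 and 2 counts. Those counts lie at or below a floor of 3 counts, which is 0.464 CPM in replicate 2. The exact Poisson 95% interval of 2 counts runs from 0.242 to 7.22 counts, and that of 0 counts up to 3.69. These intervals cover counting error only. With Lef1 set to the floor of 3 counts in each library, Tcf7l1 was 487.7-fold, 153-fold and 70.4-fold higher than Lef1 in replicates 1, 2 and 3. The upper limits of the intervals lie above that floor, so lower folds are not excluded.

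Of the summed TPM of the 4 factors, Tcf7l1 held 60.8%, 55.0% and 51.6% in replicates 1, 2 and 3, or 55.8% ± 4.62 (SD, n = 3). Tcf7 held 35.3% ± 2.45, Tcf7l2 8.69% ± 3.27 and Lef1 0.174% ± 0.241 (SD, n = 3). The sum itself was 27.6, 19.2 and 6.68 TPM. Tcf7l1 exceeded Tcf7l2 in every replicate, with a log2 TPM ratio of 2.74 ± 0.62 (SD, n = 3). Its ratio to Tcf7 was 0.66 ± 0.20 (log2 TPM, SD, n = 3) with the authors' lengths and -0.071 ± 0.23 with the longest annotated transcripts, so which of these 2 factors was higher per length was not settled.

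In the order of mean TPM, from Ctnnb1 through Apc, Gsk3a, Tcf7l1, Tcf7, Gsk3b, Axin1, Axin2 and Tcf7l2 to Lef1, 4 of the 9 neighbouring pairs were apart. A pair was called apart where its log2 TPM difference within a library had the same sign in all 3 replicates and a mean above 2 SD. These were Ctnnb1 over Apc by 3.49 ± 0.47, Tcf7l1 over Tcf7 (by the authors' lengths) and Gsk3b over Axin1 by 1.13 ± 0.21 (log2, SD, n = 3). The last was Tcf7l2 over Lef1, by 4.70 ± 0.85 with Lef1 set to the floor (log2, SD, n = 3). Apc and Gsk3a, Gsk3a and Tcf7l1, Tcf7 and Gsk3b, Axin1 and Axin2, and Axin2 and Tcf7l2 did not differ beyond their spread by the deposited TPM. With the longest annotated transcripts as lengths 5 pairs were apart and Gsk3a stood above Apc in every replicate, by 0.80 ± 0.060 (log2, SD, n = 3). Leaving out replicate 3 raised the number of pairs apart to 7, and leaving out replicate 1 or 2 lowered it to 2.

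Replicates were then compared by CPM scaled with TMM, a normalization for library composition. Of the 9 members that passed the filter on low counts (all but Lef1), 2 spread more than other genes at their abundance do, Tcf7l1 and Tcf7. Over all 12577 genes tested, 1.84% passed this test. Tcf7l1 had 63.7, 56.4 and 18.8 scaled CPM in replicates 1, 2 and 3, with an adjusted p of 0.000165 (edgeR goodness-of-fit test, Benjamini-Hochberg over all genes). Tcf7 had 47.3, 46.3 and 19.2 scaled CPM, with an adjusted p of 0.0178 by the same edgeR test. In both genes replicates 1 and 2 lay close together and replicate 3 well below them. On the log2 scale replicate 3 was below the mean of the other 2 by a difference of -1.66 for Tcf7l1 and -1.27 for Tcf7, where the median over all genes tested was 0.0037 and 2.09% of them were at -1 or below. In deposited TPM, which is not scaled by TMM, the sum of each marker list given above was lowest in replicate 3. The sum of the 10 members was lowest there as well (239.1, 167.2 and 145.4 TPM), and that of the WNT ligands was not (1.37, 0.84 and 0.88 TPM). By scaled CPM, replicate 3 was the lowest in 4 of the 8 pluripotency markers, in both fibroblast markers that passed the filter and in the 1 tested primitive endoderm marker, and the highest in the 1 tested marker each of primitive streak and trophoblast. Its difference from the mean of the other 2 replicates had a median of -0.021 (log2) over the pluripotency markers and -0.74 over the 2 fibroblast markers. The summed TPM of all 6 fibroblast markers was 4.57, 4.33 and 1.79. The part of these markers in the result was not tested. In a bulk library, fewer cells with a transcript and less of it per cell cannot be told apart.

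Gene length moved with replicate 3, as a smoothed trend over the table shows. At the length of Tcf7l1 the trend of replicate 3 was 0.037 (log2), and at that of Tcf7 it was -0.0079, so their deviations of -1.10 and -0.85 from the gene mean were about as large after the trend was taken out, at -1.14 and -0.84. After a length correction in the model the adjusted p was 3.03e-06 for Tcf7l1 and 0.00558 for Tcf7 (edgeR). The calls rest on replicate 3: without it neither gene passed (edgeR adjusted p 0.999 for each). Without replicate 1 or replicate 2, Tcf7l1 still passed, at 0.0112 and 0.0154, and Tcf7 did not, at 0.109 and 0.202 (edgeR).

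**Figure D3:**
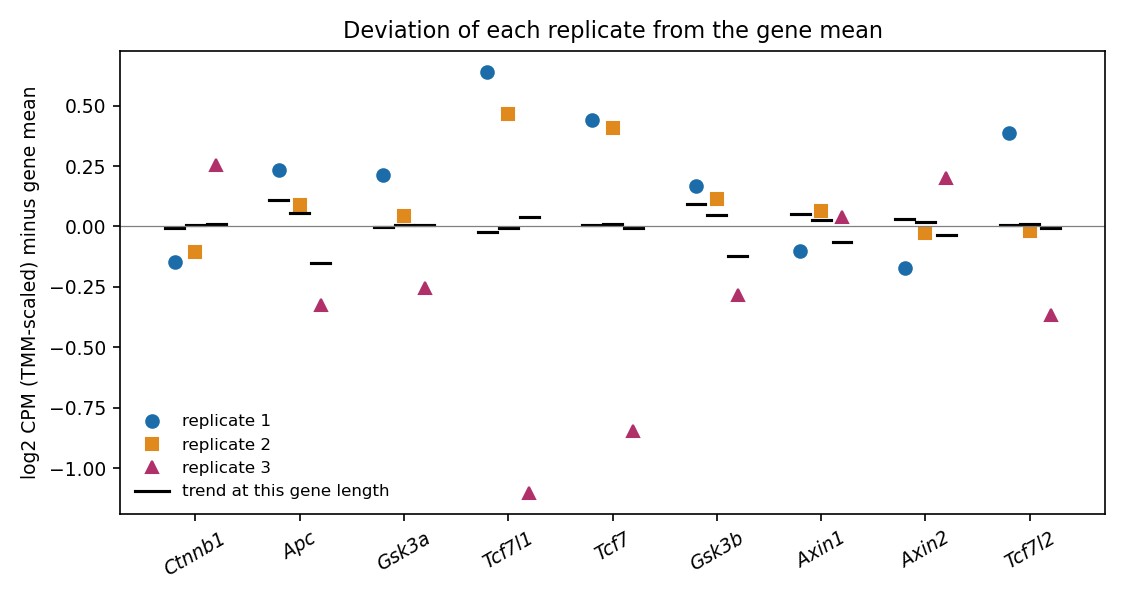
Deviation of TMM-scaled log2 CPM from the gene's mean for the 9 members that passed the filter, by replicate, with black ticks at the deviation typical of genes of the same length. Replicate 3 lies at -1.10 for Tcf7l1 and -0.85 for Tcf7, while its ticks for these genes are near 0.

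The other 7 tested members did not pass (edgeR adjusted p 1.00 for each), and their values between the highest and lowest replicate differed by 0.17 to 0.75 on the log2 scale. Replicate 3 was the lowest in 6 of the 9 tested members, against 40.4% of all genes tested. These were Tcf7l1, Tcf7, Tcf7l2, Apc, Gsk3b and Gsk3a. Apc had 248.4, 224.5 and 168.4 scaled CPM, and the length trend of replicate 3 was -0.15 at its length, of a deviation of -0.32. Gsk3b had 100, 96.4 and 73.1 and Gsk3a 75.0, 66.6 and 54.1 scaled CPM. Ctnnb1 and Axin2 were highest in replicate 3, at 670.9, 691.3 and 886.5 and at 11.3, 12.5 and 14.7 scaled CPM.

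**Figure D4:**
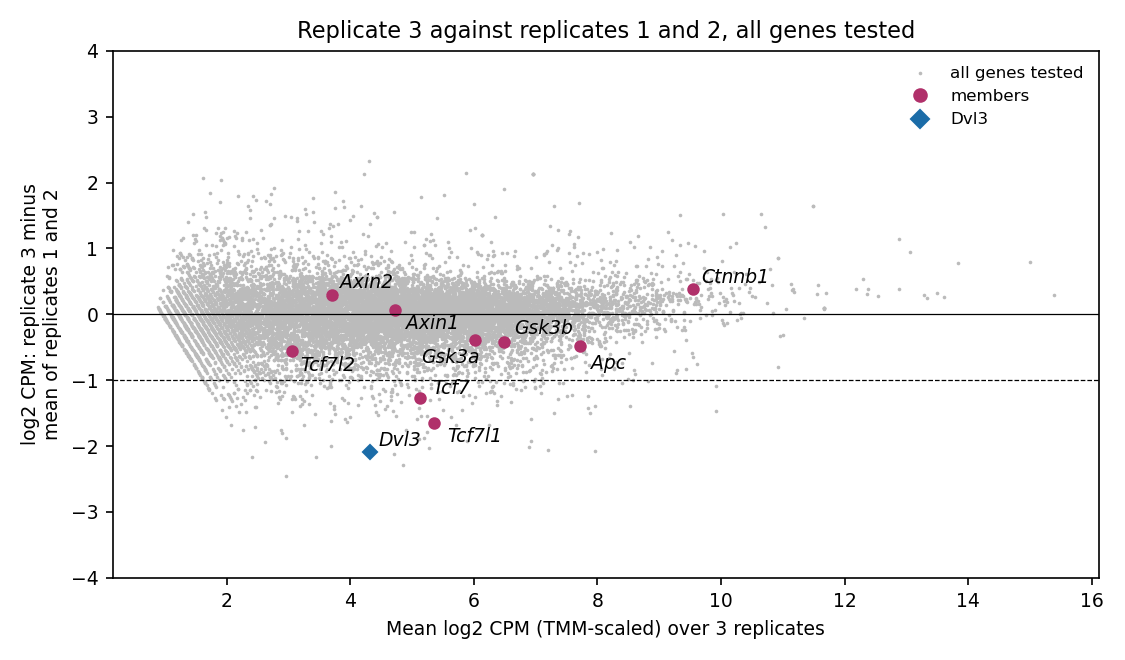
TMM-scaled log2 CPM of replicate 3 minus the mean of replicates 1 and 2 (vertical axis) against the mean over replicates (horizontal axis) for 12577 genes, with the members in red, Dvl3 in blue and a dashed line at -1. Tcf7l1 (-1.66), Tcf7 (-1.27) and Dvl3 (-2.09) lie under the line, and the other members lie between -0.55 and 0.38.

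The rest of the pathway was read from lists by role. Of 97 further genes, genes repressed by Tcf7l1 included, 44 had a mean TPM of at least 1, which is 45.4%, close to the 44.2% of protein-coding genes. The share of protein-coding genes without the genes under 100 nt in the total was not computed. At that setting 53 of the 97 and still 9 of the 10 members reached 1 TPM. Of the 54 that passed the filter for the variability test, 1 passed, or 1.85%, as 1.84% of all genes did. Replicate 3 was the lowest in 34 of the 54, or 63.0%, against 40.4% of all genes. The gene that passed was Dvl3, which encodes a Dishevelled protein that relays the signal from the receptor to the destruction complex. Dvl3 had 34.4, 29.99 and 7.35 scaled CPM in replicates 1, 2 and 3 (edgeR adjusted p 1.60e-05), lowest in replicate 3 as Tcf7l1 and Tcf7 were. Its paralogues Dvl1, at 23.2, 22.3 and 23.7 scaled CPM, and Dvl2, at 54.5, 53.2 and 47.1, did not pass.

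Ligands were almost undetected. None of the 19 WNT genes had a mean TPM of 1, 12 had at most 3 counts in every replicate and 7 of those had no count at all. Of protein-coding genes, 44.2% averaged 1 TPM or more. Of the 21897 protein-coding genes, 7996 had at most 3 counts in every replicate and 5711 had no count. The highest means by TPM, from 0.133 to 0.167, were those of Wnt7a, Wnt5a, Wnt9a and Wnt11, but Wnt7a had 3, 2 and 0 counts and Wnt5a 5, 3 and 2, too few to rank them. Wnt9a had 16, 12 and 2 counts, and Wnt3a, a ligand used to activate the canonical pathway, 13, 6 and 4. Of the genes for WNT secretion, Porcn, which acylates WNT proteins, had 1.70 ± 0.395 TPM and Wls, which carries them to the surface, 0.887 ± 0.302 TPM (SD, n = 3).

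Receptors and co-receptors reached a mean TPM of 1 in 5 of 12 genes, or 41.7%, near the 44.2% of protein-coding genes. They were led by the co-receptor Lrp6 at 8.97 ± 2.85 TPM and the Frizzled receptor Fzd5 at 8.94 ± 2.21 TPM (SD, n = 3). Fzd10 followed at 5.74 ± 1.04 TPM and Lrp5 at 3.41 ± 1.17 TPM (SD, n = 3). Without the genes under 100 nt in the total, Fzd2, Fzd3, Fzd4, Fzd6, Fzd8 and Fzd9 also averaged above 1 TPM. Their means were then 1.37, 2.11, 1.06, 2.63, 1.19 and 2.23 TPM, while Fzd1 had 0.201 TPM. The share of protein-coding genes at that setting was not computed. Of the R-spondin axis, which sets how long Frizzled receptors stay on the surface, Lgr4 had 4.47 ± 0.601 TPM and the ligase gene Znrf3 2.77 ± 0.878 TPM (SD, n = 3), while Lgr5 had no count. Secreted antagonists reached 1 TPM in 4 of 12 genes, or 33.3%, and Sfrp1, a WNT-binding decoy, was the highest at 8.31 ± 2.11 TPM (SD, n = 3).

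The 9 other listed genes of the destruction complex and of β-catenin turnover had a median of 11.9 TPM, against 6.21 TPM for the members. A mean TPM of 1 was reached by 8 of 9, or 88.9%, against 44.2% of protein-coding genes. Csnk1a1, the casein kinase that primes β-catenin at serine 45, had 47.5 ± 15.3 TPM (SD, n = 3). Tnks2, a tankyrase that marks AXIN for degradation, had 38.6 ± 9.90 TPM, and the ubiquitin ligase subunits Fbxw11 and Btrc 11.9 ± 2.40 and 6.05 ± 1.42 TPM (SD, n = 3). Apc2, the paralogue of Apc, was the exception at 0.0233 ± 0.0115 TPM (SD, n = 3), from 7, 2 and 5 counts. The adherens junction partners of β-catenin were all expressed, with Cdh1 (E-cadherin) at 44.8 ± 13.5 TPM and Ctnna1 (α-catenin) at 25.8 ± 6.24 TPM (SD, n = 3).

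Nuclear cofactors reached 1 TPM in 10 of 13 genes, or 76.9%, against 44.2% of protein-coding genes. The highest was Aes, a shortened member of the Groucho family that is known to counteract the others, at 61.5 ± 18.3 TPM (SD, n = 3). The full-length Groucho genes, whose products bind TCF factors as corepressors, included Tle3 at 13.3 ± 5.51 TPM and Tle4 at 6.03 ± 2.55 TPM (SD, n = 3). The coactivator gene Bcl9, which links β-catenin to Pygo proteins, had 34.5, 32.4 and 18.1 scaled CPM. It was lowest in replicate 3 but did not pass (edgeR adjusted p 0.447).

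Of 18 textbook β-catenin targets, 3 of them members, 7 had a mean TPM of at least 1. That is 38.9%, near the 44.2% of protein-coding genes. Cdx1, an intestinal and posterior patterning factor, was the highest at 8.36 ± 2.35 TPM, followed by Ccnd1 (cyclin D1) at 6.54 ± 1.80 TPM (SD, n = 3). At the low end, T (brachyury), Sp5, Cdx2, Dkk1, Lef1 and Lgr5 had at most 3 counts in every replicate. Notum, which encodes a secreted WNT deacylase, was highest in replicate 3, with 6.54, 7.23 and 13.9 scaled CPM, and did not pass (edgeR adjusted p 0.437). No culture without the inhibitor was measured, so none of these levels shows activation or its absence.

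**Figure D5:**
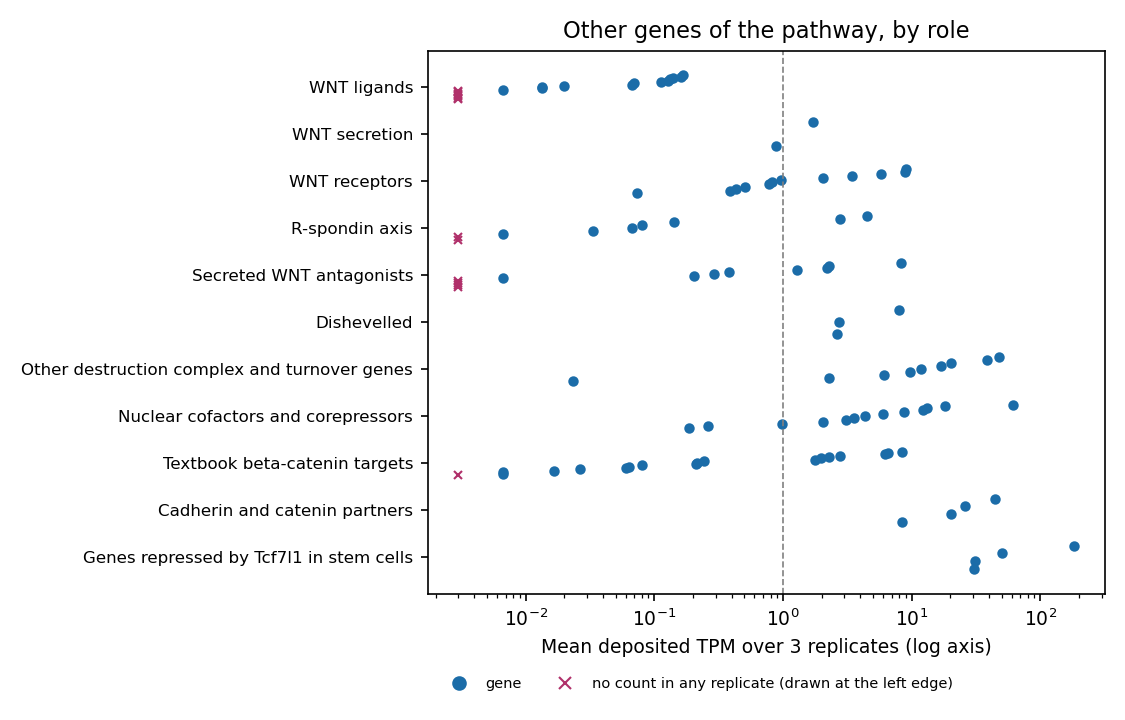
Mean deposited TPM (log axis) of the listed genes of the pathway, by role (the targets include the members Tcf7, Axin2 and Lef1), with 1 TPM as a dashed line and crosses for genes with no count in any replicate. No WNT ligand reaches 1 TPM, whereas 8 of 9 turnover genes and all 4 cadherin and catenin partners do, as do 44.2% of protein-coding genes.

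The genes that Tcf7l1 is known to repress in stem cells were read beside Tcf7l1 in each replicate. Nanog, a core pluripotency factor, had 1004, 1069 and 1138 scaled CPM in replicates 1, 2 and 3. Esrrb, a nuclear receptor of the naive state, had 461.1, 460.5 and 414. Klf2 had 166.4, 149 and 122.8 scaled CPM and Tfcp2l1 860.9, 839.6 and 566.4. Replicate 3, where Tcf7l1 was at its lowest, thus had the highest Nanog value and the lowest values of the other 3 genes, and none of the 4 passed the variability test (edgeR adjusted p 1.00 for each). At the length of Tfcp2l1 the trend of replicate 3 was -0.20, of a deviation of -0.39 (log2) from the gene mean.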

How the data were processed

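RNA-seq tables of 3 replicates of E14 cells were used. Per the labels' protocols, total RNA was treated with DNase, rRNA was removed, and a directional kit was used for the libraries. The submitters' processing notes name STAR, RSEM and mm10, with no versions; annotation release and strand setting are not given in the sources used here. The authors deposited expected counts (an estimated count per gene) without normalization, and TPM scaled by effective length, per the file headers. The authors also deposited FPKM, not used. Other columns of the deposited tables give length and effective length in nt.

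Gene IDs were looked up in GENCODE vM21 (GRCm38) for symbols and positions, and 55141 of 55487 were found; printed sequences were read from the RefSeq GRCm38.p6 genome. Counts were rounded for edgeR 4.0.16 (R 4.3.3), with filterByExpr, TMM, an intercept-only design and trended dispersion; genes with a Benjamini-Hochberg adjusted p under 0.05 in its goodness-of-fit test were called varying. The test was tested on simulated data. Alternatives used DESeq2 1.42.0 size factors, other filters, dispersions, lengths and pseudocounts, and left out each replicate. Ratios were log2 of TPM within a library, with genes at or below 3 counts set to 3 counts. A floor of 3 counts is 0.263, 0.464 and 0.518 CPM in replicates 1, 2 and 3. Python 3.11.15 did the rest.

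The members, lists and tests were chosen with earlier results of these data known. Named genes are the members, genes of the pathway and marker lists, and genes overlapping a member. For each pathway list the highest gene by mean TPM is named. The others named were not always the next highest, and Bcl9 and Notum are given with their values in replicate 3. Results for a further marker list are not reported here.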

Additional observations from a re-analysis of the deposited data

How the results depend on the processing

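The numbers of expressed and of varying members, the order of levels and the ratios were recomputed under other settings. The log2 ratio of Gsk3b to Gsk3a, -0.87, became 0.46 by CPM, which ignores the longer Gsk3b transcript, and -1.42 with the longest annotated transcripts. That of Tcf7l1 to Tcf7, 0.66, became 0.23 by CPM and -0.071 with the longest transcripts. With log2(TPM + 1) the ratio of Tcf7l1 to Tcf7l2 became 2.08 and that to Lef1 3.21, as a pseudocount shrinks ratios to low genes. The share of Tcf7l1 among the 4 factors became 48.5% by CPM and 45% with the longest transcripts. Pathway genes past the limit were 28 at 5 TPM, against 44 at 1 TPM. The share of protein-coding genes at 5 TPM was not computed. Leaving out a replicate gave 0 to 1 varying members, against 2, with fewer samples to vary, and 2 to 7 neighbouring pairs apart, against 4. Over all genes tested, 232 of 12577 were called varying with every replicate. Without replicates 1, 2 and 3 in turn, 89 of 12558, 63 of 13302 and 93 of 13608 were called. The adjusted p by edgeR of Tcf7l1 ran from 3.03e-06 to 0.000752, and that of Tcf7 from 0.00558 to 0.0380, over the other normalization, filter, dispersion, length and GC settings. The GC correction, the left-out replicates for levels and the order by longest transcript were chosen after seeing the data. Depth limits the low end: genes at or below 3 counts have no reliable rank.

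No paired analysis was possible because the RNA-seq group is the only group with tables here, and its replicates have no partner in another group.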

Other observations

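Other gene records overlap members and were counted apart from them. Gm37736, a record with no assigned transcript type on the same strand inside Tcf7l1 (chromosome 6, 72749113 to 72751914), had 140, 67 and 30 counts in replicates 1, 2 and 3, beside 760, 374 and 100 for Tcf7l1. The snoRNA gene Gm25617 inside Gsk3b (ENSMUSG00000105863, chromosome 16, 38158008 to 38158139) had 40, 41 and 65 counts, beside 1194, 640 and 388 for Gsk3b. Ppnr, inside Tcf7l2, had 22, 8 and 6 counts, beside 127, 53 and 33. The antisense record 9130221H12Rik over Gsk3a had 31, 12 and 9 counts, beside 895, 442 and 287. The strand setting is not stated, so whether strand was used to assign the reads of such a pair is not known.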
